A study of Homo sapiens with 4 samples.

Results

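The 35 genes described here code for enzymes and transporters of glycolysis and gluconeogenesis, and were selected by symbol from the 44591 genes of the gene tables. They comprise 3 glucose transporters, the enzymes from hexokinase to lactate dehydrogenase, 2 monocarboxylate transporters, the enzymes of gluconeogenesis, and the PDK and PFKFB regulators of flux. Poly(A) RNA-seq was performed on 4 libraries labelled HepG2, a cell line from a human liver tumour. The cells received either siNC, a control siRNA, or siLINC01186, siRNA against the long noncoding RNA LINC01186 (SALIS), with 2 libraries a group. All cultures were kept in medium with 10% fetal bovine serum, left in serum-free medium for 6 h at transfection and returned to serum for 24 h. The study's figure legend states that the repeats shared siNC and had different siSALIS oligos, but the labels do not give the oligo of each library. HepG2 is 1 cell line, so the libraries sample cultures and not people, and no label says that the replicates were grown apart. The p-values below therefore concern these 4 libraries only, and part of the spread between them may be technical. Those that compare replicate 2 with replicate 1 use a spread shared by all genes and not each gene's own.

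Glycolysis turns glucose into pyruvate in the cytosol. Several steps exist as isoenzymes from separate genes, and liver cells are known for their own set, among them the transporter SLC2A2 and the pyruvate kinase PKLR, beside PCK1, FBP1 and G6PC, which run the path backwards to release glucose. Proliferating and tumour cells commonly rely on SLC2A1, ALDOA, PKM and LDHA, and export lactate through the monocarboxylate transporters SLC16A1 and SLC16A3.

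Gene counts summed to between 14968958 and 17297245 a library, and 3 counts corresponded to 0.169 to 0.210 CPM, that is counts scaled to a TMM-adjusted library total of 1000000. For LINC01186, the target, siNC replicates 1 and 2 gave 15 and 14 counts, and siLINC01186 replicates 1 and 2 gave 12 and 14. Its log2 fold change was -0.12 ± 0.53 (SE, adjusted p = 1.00, edgeR quasi-likelihood test), so a reduction was not detectable at this depth. The paper reports its knockdown in HepG2 cells by qPCR. Of 8 hepatocyte markers, the summed counts were 3 and 7 in the replicate 1 libraries of siNC and siLINC01186, and 115 and 86 in the replicate 2 libraries. ALB and APOA1, defining transcripts of liver cells, were at 0 counts in both replicate 1 libraries, and the highest value of any hepatocyte marker was 1.67 CPM. The hepatocyte identity in the labels was thus not seen in these libraries. Of 9 markers of leukocytes, endothelium and fibroblasts, summed levels were 89.7 to 114 CPM. CD68 had 50.1 to 55.0 CPM and COL1A1, a fibroblast collagen, 23.3 to 48.9 CPM, while CD3E was at 0 in every library and PTPRC, the pan-leukocyte marker, had at most 2 counts. Of the 7 tested, only COL1A1 was called between the replicate numbers, higher in replicate 2 (log2 fold change 0.76, adjusted p = 1.8e-06, edgeR), and its part in the members' values was not tested.

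The members were expressed over a wide range in the siNC libraries, and levels are compared between genes as deposited TPM, counts divided by gene length and scaled to the same total in each library. GAPDH was the most abundant member at 5307 ± 237 TPM (SD, n = 2), followed by ENO1 at 1883 ± 95.4 TPM and PKM at 1501 ± 22.0 TPM. LDHA at 1102 ± 20.4 TPM and ALDOA at 1086 ± 55.6 TPM were not separated beyond their spread. The enzymes between them on the pathway were also high, with TPI1 at 890.4 ± 2.87 TPM, PGK1 at 739 ± 186 TPM and PGAM1 at 477 ± 21.4 TPM. Both transporters at the ends of the pathway were well expressed, SLC2A1 at 157 ± 28.5 TPM and SLC16A3 at 457 ± 79.1 TPM. At the other extreme, SLC2A2 had 0 counts in all 4 libraries, and G6PC, which makes free glucose in the last step of gluconeogenesis, had 2 counts in siNC replicate 1 and 0 in the others. These genes failed the filter of 5 summed counts, so 33 of the 35 members were tested among 23942 genes.

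**Figure D1:**
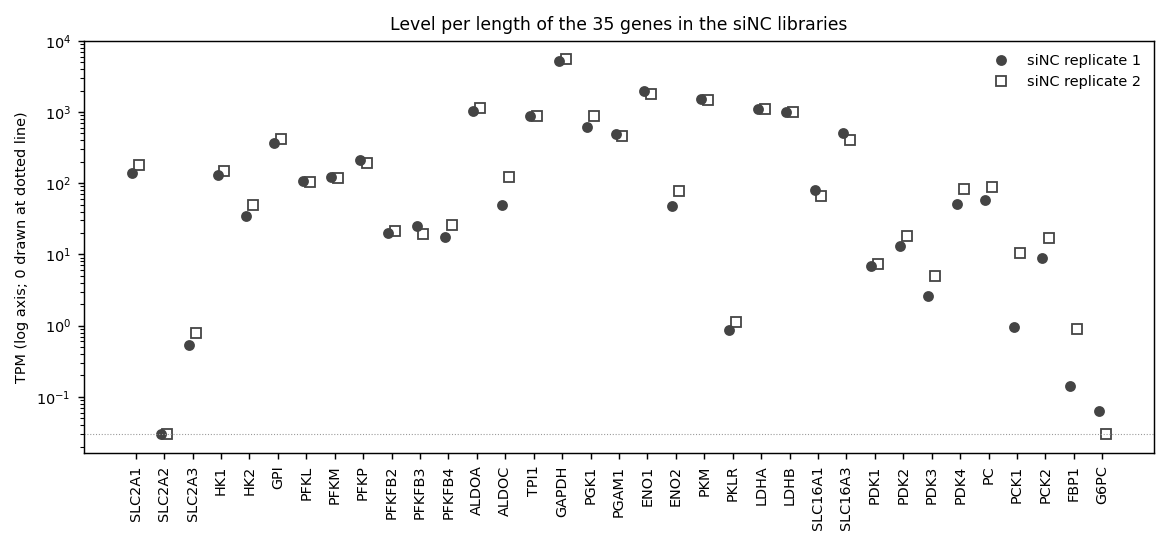
Deposited TPM (log axis) of the 35 members in each siNC library, ordered from uptake to gluconeogenesis; values of 0 are drawn at the dotted line. GAPDH lies above 5139 TPM in both libraries, while SLC2A2 is at 0 in both and PCK1 is drawn at 0.965 TPM in replicate 1 and 10.5 TPM in replicate 2.

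The choice of isoenzyme was read as the share of each gene in the summed TPM of its group within a library, a ratio in which library scaling cancels. The groups hold members only, so a share is a share of the listed genes. In 5 of 11 groups, 1 gene held more than 80% of the siNC signal (4 on CPM, which leaves out length). PKM held 99.9 ± 0.0131% of the pyruvate kinases (mean ± SD of both siNC libraries, as for all shares here), and PKLR, the liver and red cell form, had 21 and 26 counts in siNC. PKLR reads are uncertain, because HCN3 overlaps it on the opposite strand with 391 to 398 counts in the same libraries. SLC2A1 held 99.6 ± 0.0449% of the 3 glucose transporters among the members, with SLC2A3, the high-affinity form, at 16 and 23 counts. Outside the members, SLC2A8, an intracellular transporter, had 37.9 ± 1.88 TPM and SLC2A13 7.59 ± 2.34 TPM, both named after their values were seen. SLC2A3 is also uncertain, since its 3 pseudogene rows summed to 755 counts over the 4 libraries against 84 for SLC2A3 itself. ENO1 held 96.7 ± 1.21% of the enolases, the remainder being ENO2. ALDOA held 92.7 ± 3.79% of the aldolases and SLC16A3 86.1 ± 0.571% of the monocarboxylate transporters.

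Other groups were mixed. HK1, the broadly expressed hexokinase, held 76.9 ± 2.97% of the sum of HK1 and HK2. HKDC1, a hexokinase outside the members named after its value was seen, had 44.1 ± 1.87 TPM, which did not differ from HK2 at 42.6 ± 10.5 TPM beyond their spread. The phosphofructokinases were divided among PFKP at 47.2 ± 1.25%, PFKM at 28.0 ± 0.648% and PFKL at 24.8 ± 0.601%. LDHA, the form that favours lactate production, and LDHB were nearly level, at 52.3 ± 0.0350% and 47.7 ± 0.0350%. PDK4 led the kinases that switch off pyruvate dehydrogenase with 71.3 ± 2.77%, ahead of PDK2 at 16.9 ± 1.19%. The PFKFB enzymes, which set the level of the phosphofructokinase activator fructose 2,6-bisphosphate, stood at 34.3 ± 7.68% for PFKFB3, 33.5 ± 8.03% for PFKFB4 and 32.2 ± 0.348% for PFKFB2, and did not differ beyond their spread. PCK2, the mitochondrial PEP carboxykinase, held 90.3% in siNC replicate 1 and 61.6% in siNC replicate 2, the remainder being the cytosolic PCK1.

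**Figure D2:**
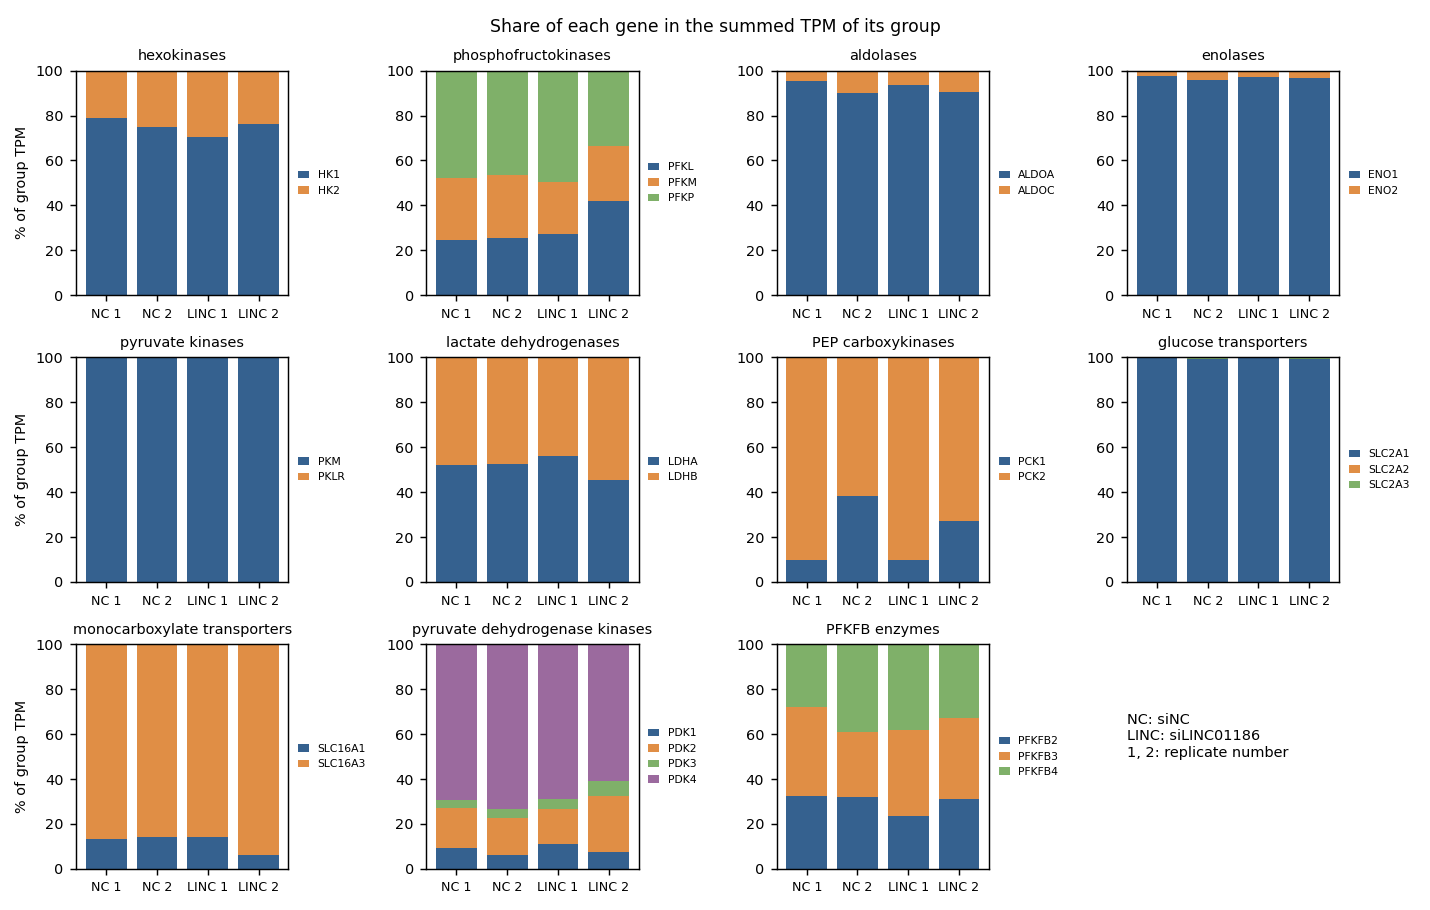
Stacked bars of each gene's share (%) of the summed TPM of its isoenzyme group, 1 bar a library, 11 groups. The bar of siLINC01186 replicate 2 (LINC 2) departs from the other 3 for the phosphofructokinases, lactate dehydrogenases, monocarboxylate transporters and PDK genes, and the PEP carboxykinase bars differ by replicate number.

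The same shares in the siLINC01186 libraries differed from siNC in several groups, most often in replicate 2. In siLINC01186 replicate 2, PFKP held 33.8% of the phosphofructokinases, against 46.3% to 49.5% in the other libraries, and PFKL held 41.8% against 24.4% to 27.1%. LDHA held 45.5% of the lactate dehydrogenases there, against 52.3% to 56.3% elsewhere. SLC16A1 held 6.26% of the monocarboxylate transporters, against 13.5% to 14.4%. PDK4 held 61.0% of its group, against 69.1% to 73.2%. In siLINC01186 replicate 1, PFKFB2 held 23.7% of its group, against 30.9% to 32.4% in the others, and HK2 held 29.6% against 20.97% to 25.2%. With 1 library standing apart each time, these shares carry no test.

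Promoter windows from RefSeq (GRCh38.p14, 300 bases, most of them upstream of a transcript start) were available for 31 of the 35 members; PCK1, SLC2A3, SLC16A1 and PFKFB2 were not matched. The letters ACGTG and GCGTG, the core of hypoxia response elements, were searched on both strands together with CACGTG, an E-box that contains ACGTG. Of the 31 genes, 27 (87.1%) held ACGTG or GCGTG in at least 1 window, against 52.4% of 27305 genes. Members have more annotated windows a gene (62 windows for 31 genes, against 35116 for 27305), and counted by window the shares were 59.7% and 48.4%. CACGTG was found in 8 of the 31 genes (25.8%) and in 8.77% of all genes, and by window in 12.9% and 7.26%. A match describes the letters alone. The windows of the 4 members with 4 or more matches are shown with matches in capitals, where letters matched on both strands count separately.
HK2 (chr2:74834920-74835219, plus strand, 6 matches): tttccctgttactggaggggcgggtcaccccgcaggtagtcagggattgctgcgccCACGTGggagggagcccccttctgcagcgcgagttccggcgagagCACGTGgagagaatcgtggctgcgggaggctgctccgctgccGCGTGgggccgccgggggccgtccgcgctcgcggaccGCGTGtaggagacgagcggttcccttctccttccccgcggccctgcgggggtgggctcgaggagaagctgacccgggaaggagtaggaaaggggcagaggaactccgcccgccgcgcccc
LDHA (chr11:18394313-18394612, plus strand, 6 matches): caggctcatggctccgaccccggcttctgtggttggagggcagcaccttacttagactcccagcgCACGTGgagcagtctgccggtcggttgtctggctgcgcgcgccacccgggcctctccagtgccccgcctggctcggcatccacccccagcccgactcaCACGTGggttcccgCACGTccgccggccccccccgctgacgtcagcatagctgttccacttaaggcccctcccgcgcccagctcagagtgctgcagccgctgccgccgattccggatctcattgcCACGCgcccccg
PGK1 (chrX:78103998-78104297, plus strand, 4 matches): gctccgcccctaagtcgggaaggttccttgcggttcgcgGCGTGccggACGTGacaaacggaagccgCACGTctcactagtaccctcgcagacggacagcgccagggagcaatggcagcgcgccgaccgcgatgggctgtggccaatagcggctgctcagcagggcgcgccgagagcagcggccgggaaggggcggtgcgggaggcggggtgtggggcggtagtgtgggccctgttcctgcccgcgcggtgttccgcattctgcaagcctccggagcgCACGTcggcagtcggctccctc
ALDOC (chr17:28576846-28577145, minus strand, 5 matches): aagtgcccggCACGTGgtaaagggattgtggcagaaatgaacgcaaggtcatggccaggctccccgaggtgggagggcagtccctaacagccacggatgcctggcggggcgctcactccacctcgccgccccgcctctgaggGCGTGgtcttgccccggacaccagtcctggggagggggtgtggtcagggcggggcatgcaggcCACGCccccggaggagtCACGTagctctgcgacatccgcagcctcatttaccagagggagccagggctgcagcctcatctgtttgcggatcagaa

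The comparison of siLINC01186 with siNC asks whether these transcripts differed between the siRNA treatments. A reduction of the lncRNA itself was not detectable in these libraries. With edgeR's quasi-likelihood test and Benjamini-Hochberg adjustment, 0 of the 33 tested members were called at an adjusted p under 0.05, and the background over all 23942 genes was 0%. At an unadjusted p under 0.05 there were 0 members and 289 genes, and DESeq2's Wald test called 0 members and 1 gene. The limits used by the study (more than 1 log2 unit of change with p under 0.05 before adjustment) were met by 0 members, beside 0.756% of all genes. With 1 library left out, PCK1 met these limits, lower without siNC replicate 1 and higher without siNC replicate 2, and SLC16A1 met them, lower, without siLINC01186 replicate 1. The fold changes of the members ran from -0.54 for SLC16A1 to 0.49 for FBP1 on the log2 scale, with a median of 0.02, and the median of all genes was 0.00. The smallest unadjusted p was 0.0895, for PFKM, the muscle-type phosphofructokinase. PFKM measured 215 and 204 CPM in siNC and 185 and 132 CPM in siLINC01186, replicates 1 and 2 in that order, so the groups did not overlap, and its log2 fold change was -0.40 ± 0.21 (SE, adjusted p = 1.00). SENP1 overlaps PFKM on the opposite strand with 27.7% of its counts. The next 4 members by p were PDK4 at -0.35, PFKL at 0.25, PCK2 at 0.39 and PFKFB3 at 0.25, all with an adjusted p of 1.00. With 1 library left out, PFKM ran from -0.67 to -0.19, PCK2 from 0.01 without siNC replicate 1 to 0.92 without siNC replicate 2, and PFKFB3 from 0.07 without siNC replicate 2 to 0.46 without siNC replicate 1, and the adjusted p values stayed at 1.00.

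Within each replicate number most of the 33 members differed in opposite directions. In replicate 1, 27 of 33 (81.8%) were higher in siLINC01186 than in siNC, against 50.7% of all genes tested, with a median log2 difference of 0.19. In replicate 2, 25 of 33 (75.8%) were lower, against 49.9% of all genes, with a median of -0.21. As many as 19 members (57.6%) were higher in the first pair and lower in the second, against 23.3% of all genes, and 0 went the other way. Another 8 were higher in both and 6 lower in both. Each pair has 1 library a side, so neither the differences nor the contrast between pairs was tested. Of the 33 members, 13 stayed within 0.3 log2 units in both pairs.

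Most of the single-form enzymes and leading isoenzymes shared these directions, PFKP among them (0.07 and -0.87), which is described below. Of the leading isoenzymes, HK1 (-0.17 and -0.16) and SLC16A3 (-0.12 and -0.31) were instead lower in both pairs. PCK2 (0.64 and 0.23) and PFKFB3 (0.15 and 0.36) were higher in both. Of the other phosphofructokinases, PFKL was higher in both pairs (0.18 and 0.32) and PFKM was lower in both (-0.22 and -0.63). For GPI, ALDOA, TPI1, GAPDH, PGK1, PGAM1, ENO1, PKM and LDHA, a set of 9 put together after their values were seen, the log2 difference in replicate 1 was 0.09 to 0.47, higher for all 9. In replicate 2 it was -0.44 to 0.00, lower for 8 of them. PGK1, which makes the first ATP of the pathway, had 678 CPM in siNC and 942 CPM in siLINC01186 of replicate 1, and 960.4 and 863 CPM in replicate 2. The level of PGK1 in siNC replicate 1 was thus the low value, and the other 3 libraries lay close together. LDHA had 1279 CPM in siNC and 1546 CPM in siLINC01186 of replicate 1, and 1297 and 958 CPM in replicate 2. For LDHA the siNC libraries were level and the siLINC01186 libraries lay on either side of them. GAPDH, often used as a reference transcript, had 4481 and 5189 CPM in replicate 1 and 4716 and 4209.6 CPM in replicate 2.

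**Figure D3:**
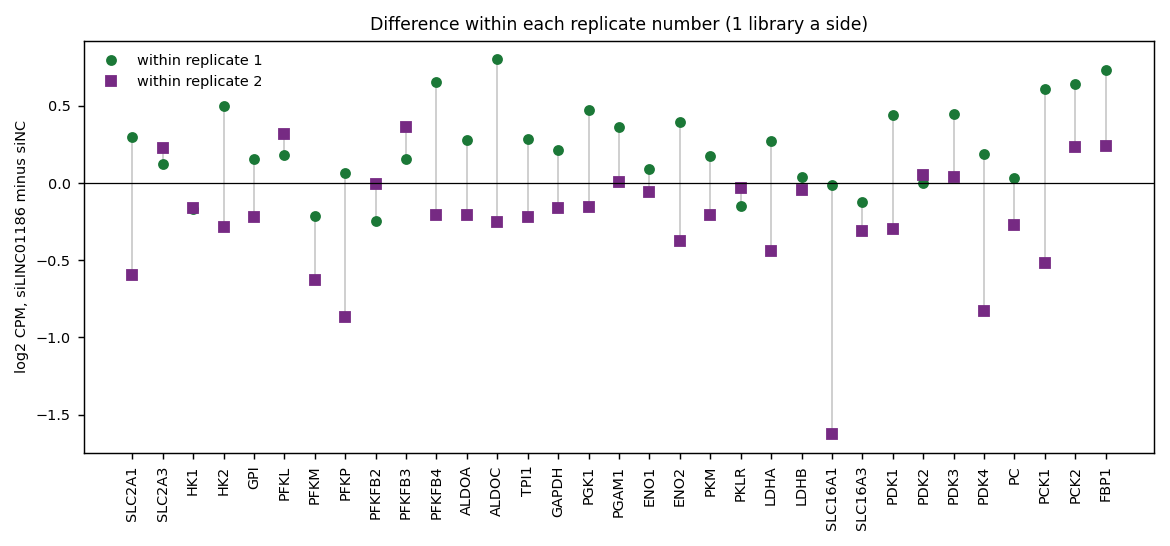
Difference in log2 CPM, siLINC01186 minus siNC, for the 33 tested members within replicate 1 (circles) and replicate 2 (squares), 1 library a side. Circles lie above 0 for 27 members and squares below 0 for 25, and SLC16A1 in replicate 2 is the lowest point at -1.63.

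The widest differences were in replicate 2. SLC16A1 (MCT1; hg19 chr1:113454469-113498975, minus strand), which moves lactate and pyruvate across the plasma membrane, had 172 and 142 CPM in siNC and 170.0 and 45.9 CPM in siLINC01186. The low value thus belonged to 1 library, a log2 difference of -1.63 in replicate 2 (3.09-fold lower) and -0.01 in replicate 1. BSG, the chaperone that carries this transporter to the membrane, had 884 to 1045 CPM over the libraries. PFKP, the platelet-type phosphofructokinase (hg19 chr10:3109712-3178997), had 372 and 329 CPM in siNC and 390.0 and 181 CPM in siLINC01186, a log2 difference of 0.07 in replicate 1 and -0.87 in replicate 2. PDK4 had 141 CPM in siNC and 79.4 CPM in siLINC01186 of replicate 2 (-0.83) and 86.7 and 98.9 CPM in replicate 1. SLC2A1 had 232 and 285 CPM in replicate 1 and 297 and 196 CPM in replicate 2, with differences of 0.30 and -0.60. In all, 6 members were lower by more than 0.5 log2 units in replicate 2, the 4 named here with PFKM at -0.63 and PCK1 at -0.52. In replicate 1, 6 members were higher by more than 0.5: ALDOC at 0.80, FBP1 at 0.73, PFKFB4 at 0.65, PCK2 at 0.64, PCK1 at 0.61 and HK2 at 0.50. FBP1 had 2 and 4 counts in that pair and PCK1 20 and 27 counts, too few for such differences to be read.

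**Figure D4:**
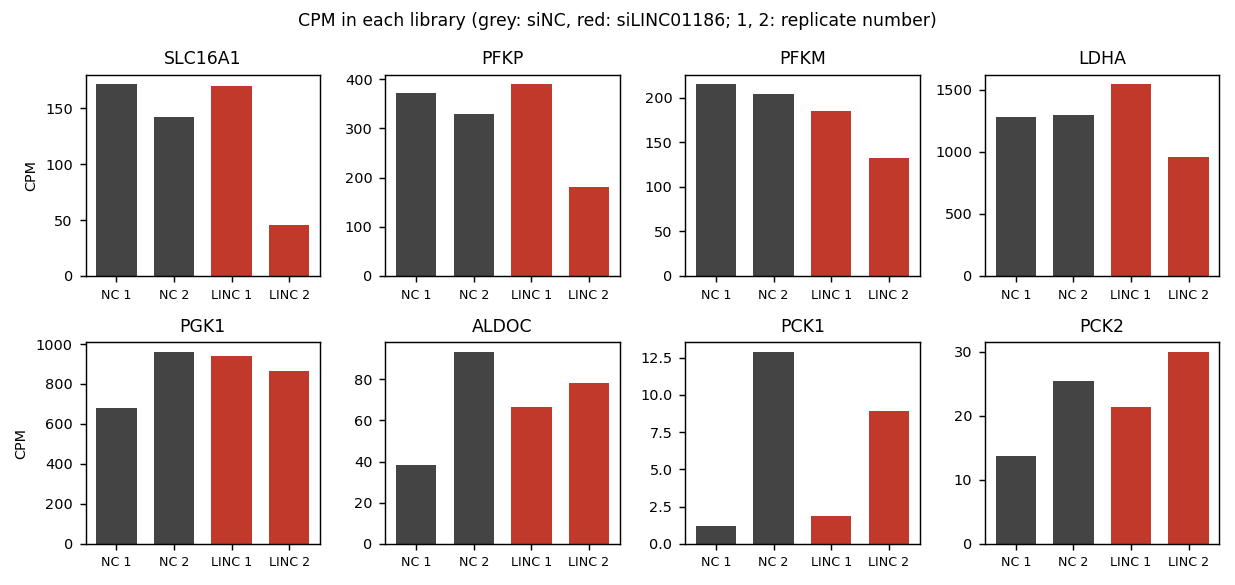
CPM in each library (linear axes from 0) for 8 members; grey bars are siNC, red bars siLINC01186, and 1 and 2 are replicate numbers. SLC16A1 and PFKP are low in siLINC01186 replicate 2 (45.9 and 181 CPM), and PCK1 is higher in both replicate 2 libraries (12.9 and 8.95 CPM) than in the replicate 1 libraries (1.19 and 1.89 CPM).

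The oligo sequences deposited with the study allow the members to be described by siRNA seed matches, a pattern that was known from earlier results of these data. Bases 2 to 8 of each strand are the seed, which pairs with 7-base sites in the 3' UTR of other transcripts. The siSALIS_02 strand as printed is shown with its seed in capitals, followed by the sites for that seed in SLC16A1 and PFKM, with GRCh38 positions on GENCODE transcripts and the site in capitals, because these are the members with the lowest replicate 2 values that hold one.
siSALIS_02: cTAAGTGActcactgcatc
SLC16A1 (chr1:112912962-112912988, minus strand): tcagctgaatTCACTTAagtttttcca
SLC16A1 (chr1:112912581-112912607, minus strand): gtgaccccttTCACTTAcctgaaaagt
SLC16A1 (chr1:112912486-112912512, minus strand): taacctaataTCACTTAaatcgaggca
PFKM (chr12:48145958-48145984, plus strand): ctgctagataTCACTTActcagttaga
Of the 33 tested members, 3 held this site, namely SLC16A1 with 3 copies, PDK1 with 2 and PFKM with 1, and 12.1% of the 14756 tested genes with an annotated 3' UTR did. PDK1, not shown, differed by 0.44 in replicate 1 and -0.30 in replicate 2. Its 3' UTR has 12700 bases, against 2044 for SLC16A1 and 696 for PFKM. Among 12213 genes of at least 1 CPM, 38 (0.311%) had 3 or more copies, and their median log2 difference was -0.30 in replicate 2 and -0.03 in replicate 1. These 38 include SLC16A1. Genes with 1 copy had medians of -0.14 in replicate 2 and 0.01 in replicate 1, and genes with 0 copies had medians of 0.01 in both. PFKP, lower by 0.87 in replicate 2, held none of the sites of either siSALIS strand. The sites of the opposite strand occurred in GPI, PGK1, LDHA, PDK1 and PFKFB4. Those of siSALIS_01 as printed were in PKM, PCK1, PDK3 and PFKFB4, and those of its opposite strand in PGK1, PDK1, PFKFB2 and PFKFB3. For 1 or more copies of these 3 sites, in that order, replicate 2 medians over genes were -0.09, -0.02 and -0.06. The site of siSALIS_02 as printed had -0.15 at 1 or more copies. At 3 or more copies the other 3 sites had -0.17, -0.004 and -0.08. Replicate 1 medians at 1 or more copies were -0.006, -0.02 and 0.002, beside 0.005 for siSALIS_02 as printed. Which oligo was in which library is not in the labels, and the part of these sites in the members' values was not tested.

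Replicate 2 was compared with replicate 1 with the group in the model, each replicate number having 1 library of each group. This comparison uses the same 4 libraries as the differences above. By the study's legend the repeats had different siSALIS oligos, so within siLINC01186 replicate number and oligo cannot be told apart. The fold change averages over both groups. Replicate 2 minus replicate 1 in log2 CPM was -0.28 within siNC and -1.89 within siLINC01186 for SLC16A1, and -0.18 and -1.11 for PFKP. It was -0.37 and -0.56 for SLC16A3, and 3.30 and 2.17 for PCK1. With edgeR's quasi-likelihood test, 6 of 33 members (18.2%) were higher in replicate 2 at an adjusted p under 0.05, beside 7.96% of all genes, and 8 (24.2%) were lower, beside 9.55% of all genes. Expressed genes were called more often: of the 10182 genes with a mean of at least 10 CPM, 9.90% were higher and 19.6% lower, against 17.2% and 27.6% of the 29 members at that level. The fit had 1 residual degree of freedom and took its spread from the trend shared by all genes, so a gene's own spread did not enter, and DESeq2's Wald test called 2 members higher and 1 lower. Of the 14 called members, 13 had values that did not overlap between the replicate numbers, as did 18 of all 33. The same count was not made over all genes, so 18 of 33 has no background to be read against. The count also uses the values that gave the calls, so it lends them no support. The calls moved with single libraries: without siNC replicate 1 there were 1 higher and 4 lower, without siLINC01186 replicate 1 there were 3 lower, and without siLINC01186 replicate 2 there were 8 higher and 1 lower.

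The higher members came mainly from gluconeogenesis and the PDK family. PCK1, the cytosolic PEP carboxykinase that commits carbon to glucose (hg19 chr20:56136137-56141513), rose most. It had 1.19 and 1.89 CPM in the replicate 1 libraries of siNC and siLINC01186, and 12.9 and 8.95 CPM in those of replicate 2. Its log2 fold change was 2.82 ± 0.25 (SE, 7.08-fold, adjusted p = 1.2e-26), and PCK1 was the only one of the 14 members called under all 9 alternative settings. The hepatocyte markers moved with it, from 0.179 and 0.490 CPM in sum to 7.12 and 4.84 CPM, and their part in the PCK1 value was not tested. PCK2 had 13.7 and 21.3 CPM in replicate 1 and 25.5 and 30.0 CPM in replicate 2 (log2 fold change 0.69 ± 0.15, adjusted p = 1.0e-04). Its fold change was 0.38 and not called without siNC replicate 1, and 1.02 without siLINC01186 replicate 1. PC, pyruvate carboxylase, had 113 and 115 CPM, then 169 and 139.5 CPM (0.43 ± 0.11, adjusted p = 0.00158). LRFN4 overlaps PC on the opposite strand, with 4153 and 2916 counts in replicate 1 and 2777 and 2537 in replicate 2, and the sources used here do not give the strand setting of the counting, so the PC value is uncertain. FBP1, which reverses the phosphofructokinase step, had 2 and 4 counts and then 12 and 16 counts, and missed the threshold (2.04 ± 0.81, adjusted p = 0.0618).

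PDK3 had 15.8 and 21.5 CPM in replicate 1 and 29.9 and 30.7 CPM in replicate 2, a log2 fold change of 0.72 ± 0.15 (adjusted p = 3.4e-05). PDK2 had 20.4 and 20.4 CPM, then 28.4 and 29.5 CPM (0.51 ± 0.15, adjusted p = 0.00558). Both libraries of replicate 2 were above both of replicate 1 for these kinases, while PDK1 and PDK4 were not called. ALDOC, the brain-type aldolase, had 38.2 and 66.6 CPM in replicate 1 and 93.3 and 78.3 CPM in replicate 2 (0.75 ± 0.13, adjusted p = 1.3e-07). Without siNC replicate 1 the ALDOC fold change was 0.37 and was not called, and without siLINC01186 replicate 1 it was 1.17. Of the 6 higher members, PCK1 alone was called without siNC replicate 1.

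The 8 lower members were SLC16A1, SLC16A3, PFKP, TPI1, PGAM1, ENO1, PKM and LDHA. The others from GAPDH to lactate dehydrogenase were not called, with log2 fold changes of -0.11 for GAPDH, -0.02 for LDHB and 0.19 for PGK1. ENO2 at 0.29 and PKLR at 0.42 were also not called. SLC16A1 had a log2 fold change of -1.06 ± 0.12 (adjusted p = 5.2e-17) and PFKP of -0.64 ± 0.10 (adjusted p = 2.2e-08). Without siLINC01186 replicate 2 these became -0.27 and -0.21 and were not called, and without siNC replicate 2 they were -1.87 and -1.05. SLC16A3 (MCT4), the exporter of strongly glycolytic cells, had 587 and 538 CPM in replicate 1 and 453 and 365 CPM in replicate 2 (-0.47 ± 0.09, adjusted p = 2.6e-05), lower in both groups. LDHA had a fold change of -0.33 ± 0.08 on the log2 scale (adjusted p = 9.1e-04), but its replicate numbers overlapped, and within siNC the log2 difference was 0.02.

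Another 4 enzymes passed with small changes. TPI1 had 763 and 932 CPM in replicate 1 and 751 and 644 CPM in replicate 2 (-0.28 ± 0.09, adjusted p = 0.0143). PGAM1 had 481 and 619 CPM, then 446 and 447 CPM (-0.29 ± 0.09, adjusted p = 0.0170). PKM, the pyruvate kinase of these cells, had 2389 and 2701 CPM, then 2312 and 2001 CPM (-0.24 ± 0.08, adjusted p = 0.0128). ENO1 had 2924 and 3112 CPM, then 2689 and 2579 CPM (-0.20 ± 0.07, adjusted p = 0.0455). Within siNC the log2 differences of TPI1, PGAM1, PKM and ENO1 were -0.02, -0.11, -0.05 and -0.12. Within siLINC01186 they were -0.53, -0.47, -0.43 and -0.27. These calls were not stable. TPI1, PGAM1, PKM and ENO1 all lost theirs with edgeR's filterByExpr, with no group term and with DESeq2's Wald test. With 1 library left out, the fold change of TPI1 ran from -0.42 to -0.13 and that of PGAM1 from -0.47 to -0.11. That of PKM ran from -0.32 to -0.14 and that of ENO1 from -0.24 to -0.15. Without siLINC01186 replicate 1 the fold changes of TPI1, PGAM1, PKM and LDHA were -0.13, -0.11, -0.15 and -0.18. Without siLINC01186 replicate 2 they were -0.18, -0.31, -0.14 and -0.13, none of the 8 lower members was called, and PFKFB3 was called lower instead.

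**Figure D5:**
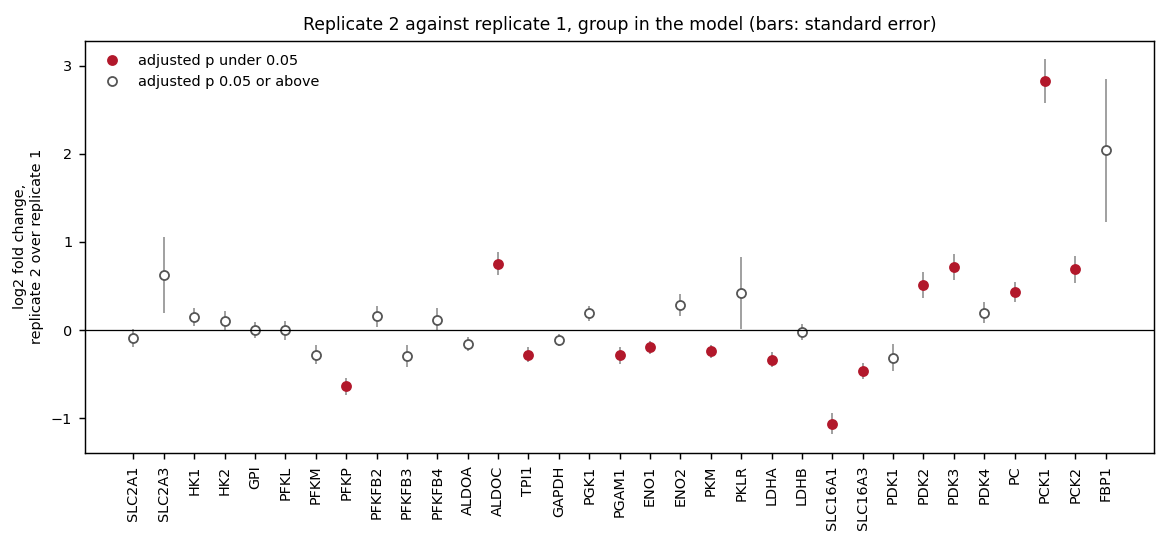
Log2 fold change of replicate 2 over replicate 1 for the 33 tested members, with standard errors; filled points have an adjusted p under 0.05 (edgeR). PCK1 stands at 2.82 and SLC16A1 at -1.06, and the filled points below 0 other than SLC16A1, PFKP and SLC16A3 lie between -0.33 and -0.20.

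Other genes of the same pathways, 37 outside the members with 33 tested, gave 0 calls between siLINC01186 and siNC. Within replicate 1, 15 of the 33 (45.5%) were higher in siLINC01186, and within replicate 2, 17 (51.5%) were lower, close to the shares of all genes. Between replicate numbers 5 (15.2%) were higher and 1 (3.03%) lower, beside 7.96% and 9.55% of all genes. SLC2A4, the insulin-responsive glucose transporter, had 1.19 and 0.630 CPM in replicate 1 and 5.45 and 3.04 CPM in replicate 2 (adjusted p = 9.1e-09). PGM2L1, which makes glucose 1,6-bisphosphate, had 20.6 and 20.7 CPM, then 46.8 and 34.7 CPM (adjusted p = 1.7e-09). LDHD, a mitochondrial D-lactate dehydrogenase, had 4.597 and 3.57 CPM, then 9.35 and 10.6 CPM (adjusted p = 7.1e-08). PGAM5, a mitochondrial phosphatase in spite of its name, had 190.5 and 182 CPM, then 123 and 96.3 CPM (adjusted p = 4.8e-10). Pyruvate entry into mitochondria, 10 genes of the mitochondrial pyruvate carrier and the pyruvate dehydrogenase complex with its phosphatases, gave 0 calls in either comparison, and so did the 7 tested genes of the pentose phosphate branch. In both lists the edgeR test was the same as for the members.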

How the data were processed

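Poly(A) libraries of siNC and siLINC01186 cells (2 each) were made by the authors with the NEBNext Ultra kit and sequenced as paired ends. The authors deposited gene counts and TPM with gene length and position for each library. The submitters' processing notes name hg19, HISAT2, HISAT, TopHat2 and Bowtie2, with no roles or versions. The deposited TPM equalled counts over length scaled to a total of 1000000 (largest difference 2.91e-05). MIR6087 took 1.16% to 13.8% of a library's TPM, so TPM were compared between genes within a library or as means of siNC, never between siNC and siLINC01186 except as shares. Genes with at least 5 summed counts (23942) were fitted with edgeR 4.0.16 (R 4.3.3, TMM, quasi-likelihood, Benjamini-Hochberg), with group alone, or with group and replicate number. CPM used TMM library sizes, and log2 CPM a prior count of 2. Alternatives were DESeq2 1.42.0, other filters, the replicate block and leaving out each library. Scripts were tested on simulated data. All members were named, from other lists at most 4 called genes with the smallest adjusted p, and pseudogene rows where they passed 1% of the member. Outside that rule, HKDC1, SLC2A8, SLC2A13, BSG, cell type markers and the regulators lower in replicate 2 were also named. The members, lists and tests were chosen with earlier results of these data known. Intervals for shares were not computed, and low counts are given beside them.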

Additional observations from a re-analysis of the deposited data

How the results depend on the processing

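With the replicate block, 3 members (PFKM, PFKP and SLC16A1) and 278 genes were called between siLINC01186 and siNC, against 0 and 0 without it. That fit had 1 residual degree of freedom and took its spread from all genes, so a gene's own disagreement between the pairs did not enter. Within replicates 1 and 2, SLC16A1 differed by -0.01 and -1.63, PFKP by 0.07 and -0.87, and PFKM by -0.22 and -0.63. Deviations of same-numbered libraries correlated at 0.56 across genes, and with 2 pairs the numbers are only shared labels. Across genes, 5 were called with a filter of 1 count and 1 by DESeq2, and leaving out 1 library gave 0 to 6 genes and 0 to 1 members at the limits of the study. Those limits were met by 46 genes with filterByExpr, 27 with DESeq2 and 248 to 375 without 1 library. In the replicate comparison the higher members numbered 2 with DESeq2 and 1 to 8 without 1 library. The lower members numbered 3 with filterByExpr, 1 with no group term, 1 with DESeq2 and 1 to 6 without 1 library. All genes called numbered 2754, 2158 and 929 under the first 3 of these settings, and 1294 to 3332 without 1 library. Between siLINC01186 and siNC, the log2 fold change of PDK4 (-0.35) ran from -0.66 to 0.042 without 1 library, reversing without siNC replicate 2. The pair counts (27 and 25) were 26 and 25 with DESeq2 size factors. The cause of these shifts was not tested, beyond fewer libraries or genes entering a fit. On CPM, not divided by length, siNC shares were 68.1% for HK1, 63.7% for LDHA, 76.7% for SLC16A3, 62.9% for PDK4 and 49.0% for PFKFB2. Members with a library under 20 counts (FBP1, G6PC, SLC2A2, SLC2A3, PKLR) are limited by depth.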

Other observations

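Among 18 genes that regulate glycolytic or gluconeogenic transcription, 0 were called between siLINC01186 and siNC (edgeR quasi-likelihood test, Benjamini-Hochberg adjusted p), with 2 at an unadjusted p under 0.05. Between the replicate numbers 6 were higher in replicate 2 and 4 lower, beside 7.96% and 9.55% of all genes. The 4 lower were MYC, EGLN2, MLX and FOXO1, with log2 fold changes of -0.32, -0.42, -0.32 and -0.38. The 4 genes described next had the smallest adjusted p. TXNIP, an inhibitor of glucose uptake that rises with intracellular glucose phosphates, had 29.5 and 50.04 CPM in the replicate 1 libraries of siNC and siLINC01186, and 82.6 and 125 CPM in those of replicate 2 (log2 fold change 1.40 ± 0.13, SE, adjusted p = 2.2e-25). ARRDC4, its relative with the same kind of glucose response, had 4.96 and 7.21 CPM, then 11.2 and 17.7 CPM (1.24 ± 0.19, adjusted p = 3.2e-09). MLXIPL (ChREBP), the glucose-sensing factor that acts on both, had 13.3 and 12.1 CPM, then 23.0 and 17.4 CPM (0.66 ± 0.16, adjusted p = 6.1e-04). CREB3L3, a liver-enriched factor, had 1.31 and 1.19 CPM, then 5.64 and 7.15 CPM (2.33 ± 0.29, adjusted p = 1.1e-13), and the hepatocyte markers rose in the same libraries, from 3 and 7 summed counts to 115 and 86. The part of those markers in these values was not tested.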
